A study of Mus musculus with 6 samples.

Results

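The genes described here, measured as RNA only, were grouped as signals between the macrophages of the intestinal muscle layer and the enteric nerves that run beside them. They were chosen by gene symbol from the table of normalized RNA-seq values, and 7 of the 8 chosen symbols had a row there, out of 26110 rows in all. The 5 ligand genes were Bmp2, Bmp7, Gdf15, Igf1 and Pdgfb, and the receptor genes were Bmpr2 and Adrb1. The receptor subunit gene Chrna7 is not analysed here. All 7 genes passed the filter on low values.

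The study sorted MHCII hi cells from the muscularis externa (ME) of the small bowel by their CX3CR1 reporter and sequenced their RNA, with 3 libraries of CX3CR1- and 3 of CX3CR1+ cells. All libraries came from untreated mice of the genotype CX3CR1+/GFP on a C57BL/6 background, in which GFP marks cells that use the Cx3cr1 promoter, and both populations carry that allele. Tissue of several mice was pooled within each group, and it is not stated whether each library had a pool of its own, so the p-values measure only the spread between libraries. The comparison asks how the transcripts of the CX3CR1- population differ from those of the CX3CR1+ one. Values are estimated read counts normalized between libraries. From the value of 1 read, the CX3CR1- libraries held about 6517535 to 11927368 reads and the CX3CR1+ libraries about 5346379 to 17616748, so that the depths overlapped. The share of mitochondrially encoded transcripts was 51.7 ± 3.76% in the CX3CR1- population and 19.6 ± 1.55% in the CX3CR1+ population (SD, n = 3 each).

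Bone morphogenetic proteins bind a complex of type I and type II receptors that phosphorylates SMAD1, SMAD5 and SMAD9. In the gut wall, BMP2 from muscularis macrophages acts on enteric neurons through BMPR2, and the neurons in turn supply colony-stimulating factor 1 to the macrophages. Noradrenaline and acetylcholine from nerve endings reach macrophages through adrenergic and nicotinic receptors.

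The sample labels call the cells dendritic cells, and the data were checked against markers. The 12 macrophage genes were all above the value of 3 reads in all 6 libraries, and their summed level was 12249 ± 894 for CX3CR1- cells and 56275 ± 3025 for CX3CR1+ cells (SD, n = 3 each), with Mrc1, a mannose receptor, as the most abundant gene of both. Of these genes 11 were called lower in CX3CR1- cells and 1 higher, Lyve1, a hyaluronan receptor, with 561 ± 117 against 227 ± 78.6 (SD, n = 3 each). The 9 conventional dendritic cell genes summed to 4688 ± 278 for CX3CR1- cells and 530 ± 51.1 for CX3CR1+ cells (SD, n = 3 each). In CX3CR1+ libraries the label therefore goes against the markers, and in CX3CR1- libraries genes of both types were present. Cx3cr1, the gene of the sort, had 23.2, 18.9 and 28.5 in CX3CR1- and 371, 380 and 347 in CX3CR1+ replicates 1, 2 and 3.

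Of the 7 genes, 4 were lower in CX3CR1- cells, namely Bmp2, Gdf15, Igf1 and Pdgfb, whereas 8.15% of the 17812 tested genes were called in that direction. By limma 0 were called higher, also at an unadjusted p of at most 0.05, a direction taken by 12.2% of the tested genes. A gene was called at a log2 fold change of at least 1 in size and a limma adjusted p of at most 0.05, on log2(value + 1), and a negative value means lower in CX3CR1- cells. All CX3CR1- libraries lay below all CX3CR1+ libraries for 6 of the 7 genes, which was so for 19.8% of the tested genes. The exact two-sided permutation test gave p = 0.1 for each of these 6 genes, the smallest value that 3 libraries against 3 allow. In bulk libraries, fewer cells that express a gene and less RNA per cell cannot be told apart.

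**Figure D1:**
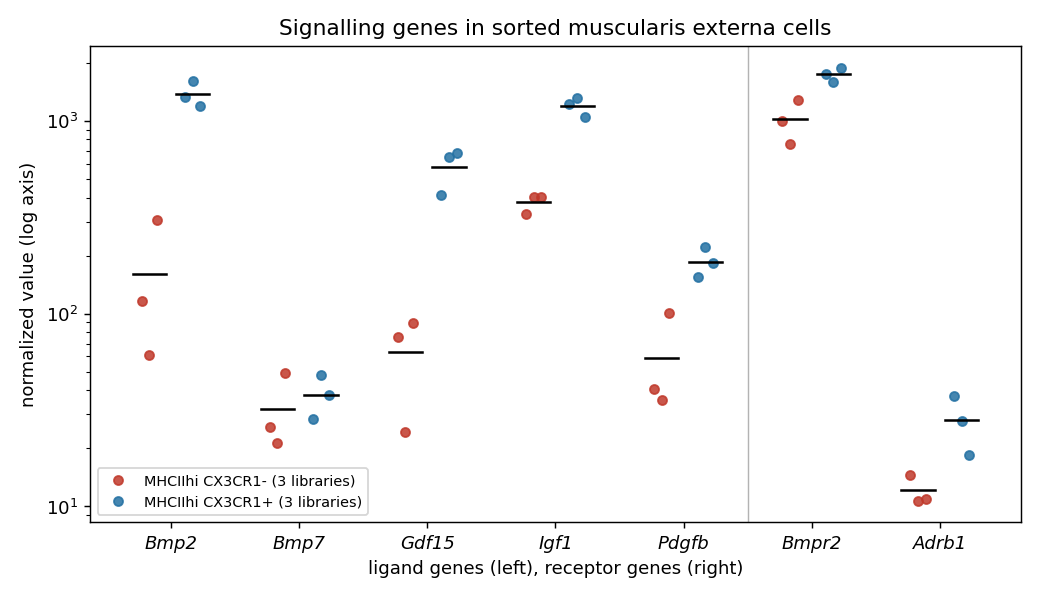
Normalized value (log axis) of each ligand gene (left) and receptor gene (right) in each library, with CX3CR1- in red, CX3CR1+ in blue and the mean of 3 libraries as a black line. Bmp2 lies between 60.8 and 305 in CX3CR1- and between 1190 and 1602 in CX3CR1+ libraries, whereas the groups overlap for Bmp7.

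Bmp2, the ligand that muscularis macrophages give to enteric neurons, lies at chr2:133552159-133562885 on the plus strand of GRCm38. Its normalized value was 117, 60.8 and 305 in CX3CR1- replicates 1, 2 and 3, and 1326, 1602 and 1190 in CX3CR1+ replicates 1, 2 and 3. The CX3CR1- libraries were all low but spread 5.02-fold between the lowest and the highest, against 1.35-fold among the CX3CR1+ libraries, and the groups did not overlap. The mean in CX3CR1+ cells was 8.53 times that in CX3CR1- cells, and the log2 fold change was -3.38 ± 0.46 (SE; limma adjusted p = 0.000502). Without CX3CR1- replicate 3 the CX3CR1- mean was 88.8 in place of 161, the ratio was 15.4 and the log2 fold change was -4.00.

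Gdf15, a stress-induced ligand of the TGF-β superfamily that acts on hindbrain neurons, lies at chr8:70629393-70632456 on the minus strand. It had 75.4, 24.3 and 89.7 in the CX3CR1- replicates and 410, 651 and 677 in the CX3CR1+ replicates. Every CX3CR1+ library exceeded every CX3CR1- library, and CX3CR1- replicate 2 was the lowest for Gdf15 as it was for Bmp2. The CX3CR1+ mean was 9.18 times the CX3CR1- mean, with a log2 fold change of -3.34 ± 0.44 (SE; limma adjusted p = 0.000415).

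Igf1, a growth factor that macrophages release for the survival of neighbouring cells, lies at chr10:87858265-87937042 on the plus strand. The CX3CR1- libraries held 328, 402 and 404, and the CX3CR1+ libraries 1224, 1306 and 1051. Both groups were tight, with 1.23-fold and 1.24-fold between their lowest and highest library, and they did not overlap. The log2 fold change was -1.66 ± 0.18 (SE; limma adjusted p = 0.000119), and the CX3CR1+ mean was 3.16 times the CX3CR1- mean. The antisense gene Igf1os overlaps Igf1 by position, and the library kit does not mark strand. Of the 31-base stretches of Igf1 transcripts, however, only 0.314% occur in transcripts of other genes on either strand.

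Pdgfb, a chain of platelet-derived growth factor that acts on mesenchymal cells, lies at chr15:79995874-80014977 on the minus strand, where the antisense gene Gm41361 overlaps it by position. Pdgfb transcripts share 0 of their 31-base stretches with transcripts of other genes. The values of Pdgfb were 40.7, 35.8 and 101 in CX3CR1- and 155, 221 and 183 in CX3CR1+ libraries. CX3CR1- replicate 3 stood above its group, as for Bmp2, and still lay under all CX3CR1+ libraries. Pdgfb had a log2 fold change of -1.78 ± 0.39 (SE; limma adjusted p = 0.0076).

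Bmp7, a ligand of the same receptor family as BMP2, lies at chr2:172868012-172940321 on the minus strand. It had 25.8, 21.2 and 49.3 in CX3CR1- and 28.4, 47.9 and 37.9 in CX3CR1+ libraries, so that the highest library of all was a CX3CR1- one. The groups overlapped, and the log2 fold change of -0.30 ± 0.43 (SE; limma adjusted p = 0.667) did not pass the test. Of the 31-base stretches of its transcripts, 2.25% also occur in transcripts of other genes.

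Bmpr2, the type II receptor for BMP ligands, lies at chr1:59763400-59879014 on the plus strand. Its values were 1002, 762 and 1285 in CX3CR1- and 1758, 1596 and 1888 in CX3CR1+ libraries. All CX3CR1- libraries were lower, yet the log2 fold change of -0.81 ± 0.20 (SE; limma adjusted p = 0.0151) stayed under the fold threshold, and Bmpr2 was not called.

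Adrb1, the β1-adrenergic receptor, lies at chr19:56722199-56733113 on the plus strand and was the least abundant of these genes. The CX3CR1- libraries had 14.6, 10.7 and 11 and the CX3CR1+ libraries 37.5, 27.9 and 18.4. The groups did not overlap, but CX3CR1+ replicate 3 came close to the CX3CR1- values. These values rest on few reads, about 13 in CX3CR1+ replicate 3 and 14, 6 and 11 in CX3CR1- replicates 1, 2 and 3. The log2 fold change was -1.10 ± 0.47 (SE; limma adjusted p = 0.124) and did not pass the test, although quantile normalization of the libraries gave -1.52 (limma adjusted p = 0.0469), which did. Over its 15 alternatives, the limma adjusted p of Adrb1 ranged from 0.0469 to 0.390.

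Levels were compared between genes as normalized value per kilobase of mean coding transcript length. In CX3CR1+ cells the order was Igf1 with 608 ± 66.3, Gdf15 with 396 ± 101, Bmp2 with 386 ± 59.1, Pdgfb with 140 ± 25.2, Bmpr2 with 135 ± 11.3, Bmp7 with 10.4 ± 2.66 and Adrb1 with 9.46 ± 3.23 per kilobase (SD, n = 3). Within that order the libraries of Gdf15 and Bmp2, of Pdgfb and Bmpr2, and of Bmp7 and Adrb1 overlapped. In CX3CR1- cells Igf1 again came first with 192 ± 22.2, followed by Bmpr2 with 78.8 ± 20.3, Bmp2 with 45.3 ± 36, Pdgfb with 44.5 ± 27.3, Gdf15 with 43.2 ± 23.5, Bmp7 with 8.76 ± 4.11 and Adrb1 with 4.10 ± 0.74 per kilobase (SD, n = 3). There the libraries of Bmpr2, Bmp2, Pdgfb and Gdf15 overlapped each with the next. The order depends on the length used. Per kilobase of all exons it was Bmp2, Gdf15, Igf1, Bmpr2, Pdgfb, Bmp7 and Adrb1 in CX3CR1+ cells, where Pdgfb at 44.8 lay below Bmpr2 at 97.2 without overlap. In CX3CR1- cells it was Bmpr2, Bmp2, Igf1, Gdf15, Pdgfb, Bmp7 and Adrb1, where all neighbours but the last pair overlapped.

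Ligands of the BMP and GDF family were called in both directions. Of 10 tested genes of that list, which includes Bmp2, Bmp7 and Gdf15, 6 were called higher and 3 lower in CX3CR1- cells, and the median log2 fold change was 1.42, beside a median of 0.00 over all tested genes. Bmp4, a ligand of mesenchymal cells, had 95.2, 71.4 and 193 in CX3CR1- and 7.20, 15.8 and 10.4 in CX3CR1+ libraries (log2 fold change 3.25 ± 0.47, SE; limma adjusted p = 0.000653). Per kilobase, Bmp4 stood at 64.8 ± 34.7 (SD, n = 3) beside Bmp2 at 45.3 ± 36 in CX3CR1- cells, with overlapping libraries, and at 6.02 ± 2.35 (SD, n = 3) beside Bmp2 at 386 ± 59.1 in CX3CR1+ cells. Gdf10 had 337, 64.4 and 427 against 22.7, 23.8 and 12.7, and Gdf6 had 12.5, 41.1 and 75.8 against 0 in all 3 CX3CR1+ libraries, at least 16-fold higher when the mean value of 3 reads stands for the zeros and 9.94-fold without CX3CR1- replicate 3. Bmp3, Bmp6 and Gdf11 were also called higher, and Gdf3 was called lower. These last calls were less stable. Bmp3 was called in 11 of 15 alternatives, Bmp6 in 7 of 14, Gdf11 in 3 of 15 and Gdf3 in 12 of 15. The call of Gdf3 was lost without any one of the CX3CR1+ replicates. Without CX3CR1+ replicate 1 or replicate 2 the count of ligands called higher was 3.

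Receptors for these ligands were tested next. Of 9 tested BMP receptors and co-receptors, 1 was called higher and 0 lower by limma. The gene called higher was the co-receptor gene Rgma with 104, 29.4 and 161 against 43.0, 10.9 and 6.93, which overlapped. Its log2 fold change was 2.32 ± 0.73 (SE; limma adjusted p = 0.0434). At an unadjusted limma p of at most 0.05, without a fold threshold, 2 were lower. Of these, Bmpr2 missed only the fold threshold, and Acvr1 (log2 fold change -0.87 ± 0.33, SE; limma adjusted p = 0.0809) also missed the adjusted p. The count called higher without CX3CR1- replicate 1 or 3, or without CX3CR1+ replicate 2 or 3, was 0, and without CX3CR1- replicate 2 it was 2. The log2 fold change of Rgma was 3.02 without CX3CR1- replicate 2 and 3.05 without CX3CR1+ replicate 1. The median was 0.07 and turned to -0.07 under quantile normalization. Bmpr2 was the most abundant gene of the list, and the type I receptor gene Bmpr1a had 264, 75.2 and 376 in CX3CR1- and 124, 136 and 97.5 in CX3CR1+ libraries, which overlapped.

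BMP antagonists bind the ligands outside the cell. Of 8 tested, Fstl3, Twsg1, Sostdc1 and Nbl1 were called higher in CX3CR1- cells, 4 in all, and by limma 0 were lower, also at an unadjusted p of at most 0.05. Sostdc1 had 18.8, 44.7 and 39.9 against 5.55, 3.28 and 0 in CX3CR1+ libraries, with a log2 fold change of 3.45 ± 0.81 (SE; limma adjusted p = 0.0112), and 2.65 without CX3CR1+ replicate 3. The most abundant antagonist gene, Fstl1, had 316 ± 40.7 and 273 ± 79.3 (SD, n = 3 each) and was not called. Without CX3CR1+ replicate 1 the count called higher was 1, and without CX3CR1- replicate 3 or CX3CR1+ replicate 2 or 3 it was 2.

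Within the cell, 1 of 6 SMAD and SMURF genes of the BMP branch was called, Smad1, lower in CX3CR1- cells with 212, 142 and 128 against 270, 417 and 304. Its call was lost in 6 of 16 alternatives, among them leaving out CX3CR1- replicate 2 or 3 or CX3CR1+ replicate 2 or 3. Among 5 tested BMP target genes, Id2, an inhibitor of helix-loop-helix factors, was lower with 310, 375 and 440 against 795, 1832 and 1529, and Id1 was higher with 17.5, 71.2 and 19.9 against 5.33, 0.681 and 0. Id2 and Id1 thus passed the test in opposite directions, with log2 fold changes of -1.81 ± 0.29 (SE; limma adjusted p = 0.00141) and 3.78 ± 0.90 (SE; limma adjusted p = 0.0122). The latter was 3.16 without CX3CR1- replicate 2 and 4.55 without CX3CR1+ replicate 1.

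For Gdf15, neither the receptor gene Gfral nor a test of its co-receptor gene Ret can be given, since Gfral is not analysed here and Ret lay under the filter with 13.1 ± 9.87 in CX3CR1- and 6.68 ± 3.48 in CX3CR1+ cells (SD, n = 3). Of 6 tested genes of the integrated stress response, which drives Gdf15 in many cells, 1 was called, Atf3, with 1340, 1205 and 1877 in CX3CR1- and 5570, 6288 and 5796 in CX3CR1+ libraries (log2 fold change -2.02 ± 0.18, SE; limma adjusted p = 3.37e-05). Atf4, a central factor of that response, had 1295 ± 22.4 and 1229 ± 197 (SD, n = 3 each), and its log2 fold change was 0.09 ± 0.17 (SE; limma adjusted p = 0.75).

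Among 6 tested adrenergic receptor genes, which include Adrb1, the α1-adrenergic receptor gene Adra1a was called higher, with 40.7, 15.4 and 118 against 3.95, 7.26 and 4.32, a call lost without CX3CR1+ replicate 1 or 3, and without CX3CR1- replicate 2 the list held 2 genes called higher.

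Nicotinic receptor subunits were low. Of 8 tested, Chrna4 alone was called, with 37.1, 11 and 34.6 in CX3CR1- libraries and at most 3 reads in each CX3CR1+ library, at least 10.2-fold higher. Chrna2, the most abundant of them by the mean over the 6 libraries but not in CX3CR1- cells, had 20.7 ± 10.3 and 45.7 ± 4.95 (SD, n = 3 each; limma adjusted p = 0.0747), and without CX3CR1- replicate 1 the list held 1 gene called lower. Of the 2 tested muscarinic receptor genes, limma called 0, also at an unadjusted p of at most 0.05, and Chrm2 had 22 ± 10.9 and 20.7 ± 8.39 (SD, n = 3 each). Of 7 tested neuropeptide receptor genes, Adcyap1r1, the receptor of the neuropeptide PACAP, was higher with 265, 217 and 397 against 25.8, 21.1 and 14.5 (log2 fold change 3.76 ± 0.34, SE; limma adjusted p = 3.52e-05). Vipr1 was the other one called higher, in 9 of 15 alternatives. Its call was lost without CX3CR1- replicate 2 and without any one of the CX3CR1+ replicates. Calcrl, the most abundant of the list by the mean over the 6 libraries, though behind Adcyap1r1 in CX3CR1- cells, had 211 ± 101 and 308 ± 37.7 (SD, n = 3 each) and was not called.

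In the IGF axis, Igf1 and Irs2 were called lower and 6 of the 12 tested genes higher in CX3CR1- cells, with a median log2 fold change of 1.76. The genes called higher were Igf2, Igf2r and those of the binding proteins Igfbp3, Igfbp5, Igfbp6 and Igfbp7, which hold IGFs outside the cell. Another binding protein gene, Igfbp4, lay the other way without overlap, with 343, 467 and 715 against 890, 992 and 736, and was not called (log2 fold change -0.83 ± 0.26, SE; limma adjusted p = 0.043). Igf2, the second IGF ligand gene, had 228, 145 and 319 in CX3CR1- and 60.6, 35.4 and 63.5 in CX3CR1+ libraries, opposite in direction to Igf1. Per kilobase of mean coding transcript length, Igf2 stood at 98.5 ± 37.3 and Igf1 at 192 ± 22.2 in CX3CR1- cells, but per kilobase of all exons at 40.3 ± 15.3 and 38.2 ± 4.41 (SD, n = 3 each), where their libraries overlapped. Igfbp7 had 968, 425 and 1755 against 75.3, 60.8 and 49.6, and Igfbp3 was listed at 0 in all CX3CR1+ libraries and was at least 21.7-fold higher, or 14.1-fold without CX3CR1- replicate 3. The receptor gene Igf1r had 320, 274 and 480 against 669, 653 and 638, with a log2 fold change of -0.91 ± 0.23 (SE; limma adjusted p = 0.0153) that stayed under the fold threshold. Irs2, an adaptor of the IGF and insulin receptors and the most abundant gene of the list by the mean over the 6 libraries, had 1203, 903 and 1032 against 2035, 3083 and 2098. Without CX3CR1+ replicate 2 the count called lower was 1, and without CX3CR1- replicate 3 it was 4.

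Of 5 tested PDGF genes, 2 were called lower and 2 higher in CX3CR1- cells. The ligand genes called lower were Pdgfb and Pdgfa, the latter with 162, 158 and 125 against 251, 490 and 388 (log2 fold change -1.30 ± 0.28, SE; limma adjusted p = 0.00652). The ligand gene Pdgfc was not called, with 38.2, 35.1 and 25.3 against 39, 39.8 and 39.7, and Pdgfd lay under the filter with 2.16, 11.1 and 7.22 against 0, 0.848 and 0. Both receptor genes were called higher. Pdgfra, which also marks fibroblasts, had 1387, 450 and 2356 against 46.5, 20.1 and 16.8, and Pdgfrb had 36.5, 32.2 and 51.8 against 3.24, 2.46 and 4.25.

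Neurotrophic genes were higher in CX3CR1- cells where they passed the test, which was 3 of 6. Gfra2, the receptor of neurturin, had 762, 553 and 709 against 37.2, 45.9 and 22.5 (log2 fold change 4.27 ± 0.30, SE; limma adjusted p = 8.99e-06). The neurotrophin receptor gene Ngfr had 102 ± 46.5 against 21.6 ± 12.1 (SD, n = 3 each). Of 5 tested genes for ligands that neurons show or give to macrophages, Cd200 was called higher with 66.4, 49.2 and 102 against 13.2, 7.19 and 2.49, and without CX3CR1- replicate 2 there were 2. Cd47, the most abundant of them, had 2330.3 ± 321 and 1938 ± 139 (SD, n = 3 each) and was not called.

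**Figure D2:**
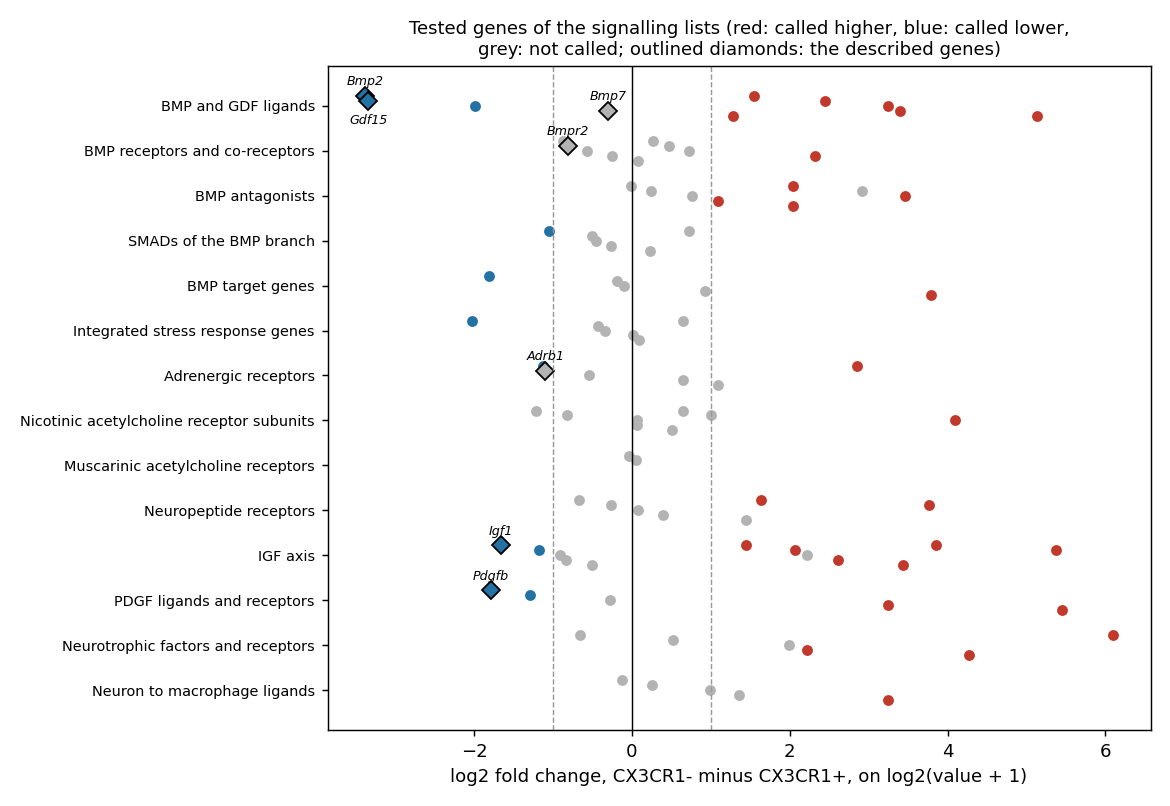
Log2 fold change of each tested gene on log2(value + 1), CX3CR1- minus CX3CR1+, by list, with genes called higher in red, called lower in blue and not called in grey, and the described genes as outlined diamonds. Dashed lines mark a log2 fold change of 1 in size. Bmp2 at -3.38 and Gdf15 at -3.34 lie at the low end of their list, opposite to Bmp4 at 3.25.

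Over these lists without the chosen genes themselves, 28 of 88 tested genes (31.8%) were called higher and 7 (7.95%) lower, beside 12.2% and 8.15% of all tested genes, with a median log2 fold change of 0.51 beside 0.00. Without CX3CR1+ replicate 2 the number called lower was 4.

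Markers of other cell types moved with the comparison, and their part in the results was not tested. The 7 fibroblast genes, all called higher, summed to 9409, 5258 and 16011 in CX3CR1- replicates 1, 2 and 3 and to 364, 303 and 209 in the CX3CR1+ replicates, with Dcn as the most abundant. Within CX3CR1- libraries this sum was lowest in replicate 2 and highest in replicate 3, and so were Bmp2, Gdf15, Pdgfb, Bmp7 and Bmpr2, whereas Igf1 and Adrb1 were not. The 6 epithelial genes, all called higher, summed to 26665, 24920.3 and 15636 against 39.8, 23.7 and 20.3, with Fabp2 as the most abundant in CX3CR1- cells, and Epcam, Krt8 and Krt20 at 0 in some CX3CR1+ libraries. Of 7 B and T cell genes, the 4 tested were called higher, Jchain was the most abundant in CX3CR1- cells, and the sums were 1398, 3529 and 1624 against 30.3, 31.5 and 26.0, with Trac at 0 in all CX3CR1+ libraries. The 6 endothelial genes, 5 of them called higher, summed to 998 ± 142 and 490 ± 140 (SD, n = 3 each), led by Pecam1. Pecam1 made up most of the CX3CR1+ sum and was not called, with 555 ± 96.1 and 449 ± 143 (SD, n = 3 each). The 5 called genes differed by more, from Vwf with 90.2 ± 13.8 against 22.6 ± 8.52 to Emcn with 94.4 ± 62.1 against 1.04 ± 1.20 (SD, n = 3 each).

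Cells that these signals reach, or that lie beside them in the gut wall, were examined in the same way. The 10 enteric neuron genes summed to 643, 174 and 565 in CX3CR1- and 221, 262 and 187 in CX3CR1+ libraries, led by Nos1, and limma called 0 of the 8 tested, against 2 at an unadjusted p of at most 0.05. Tubb3, Elavl3, Uchl1 and Chat were at 0 in at least 1 library. Of 5 enteric glia genes, Sox10, S100b and Gfap were called higher, S100b in 12 and Sox10 in 9 of 15 alternatives, and their sums of 378, 119 and 318 lay above 54.2, 68.3 and 57.9. The 6 smooth muscle genes summed to 2045 ± 978 and 2318 ± 399 (SD, n = 3 each), and limma called 0 of them, also at an unadjusted p of at most 0.05. Of the 3 genes of interstitial cells of Cajal, Kit was called higher, and the sums were 784 ± 399 and 551 ± 125 (SD, n = 3 each). The 4 mesothelial genes, with Wt1 called higher, summed to 117 ± 113 and 26.1 ± 9.16 (SD, n = 3 each), led by Upk3b. By library these sums were 245, 33.5 and 73.4 in CX3CR1- and 36.6, 19.6 and 22.2 in CX3CR1+ cells, which overlapped.

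**Figure D3:**
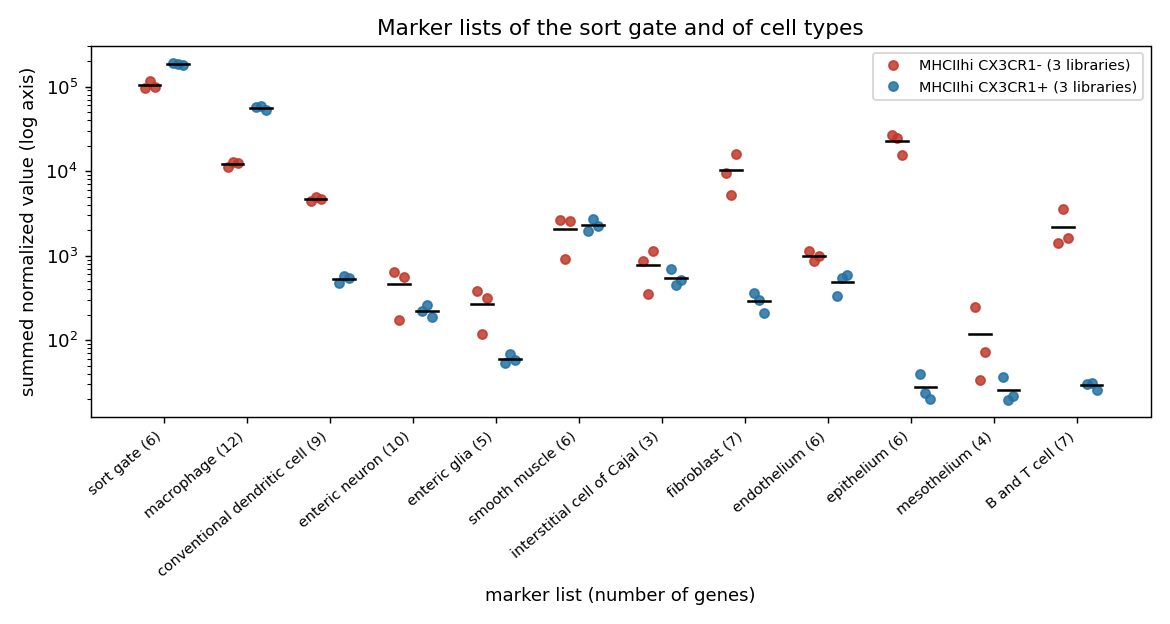
Summed normalized value (log axis) of each marker list in each library, with the number of genes in brackets, CX3CR1- in red, CX3CR1+ in blue and the mean of 3 libraries as a black line. The macrophage sum is lower and the fibroblast, epithelial and B and T cell sums are higher in all CX3CR1- libraries.

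Genes with the most similar pattern over the 6 libraries were found by Pearson's r of log2(value + 1), as a description, since the 6 points share the difference between the populations. For Bmp2 they were Fbxo30 (r = 0.997), Dll3 (r = 0.996) and Gm45640 (r = 0.996), and 434 tested genes had an r of at least 0.95. For Gdf15 they were AC149588.1 (r = 0.999), Eea1 (r = 0.999) and Gm29480 (r = 0.998), with 449 such genes. For Igf1 they were Scamp1 (r = 0.999), Smim14 (r = 0.999) and Ftl1 (r = 0.997), with 758 such genes, the most of the 7. Pdgfb was closest to Gm44709, Zbtb2 and Lrp12, the last with r = 0.997, with 266 such genes. Bmpr2 was closest to Gga3, Gm37606 and Mthfd2l, Adrb1 to B230369F24Rik, Shmt1 and Ttll12, and Bmp7 to Mul1, Pfkm and Olfr472, with 200, 106 and 26 such genes.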

How the data were processed

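RNA was measured in 6 libraries, grouped by the sample labels. The authors pseudoaligned the reads with kallisto to mm10 transcripts, summed the estimated counts per gene and normalized them with DESeq2, and the deposited values are this normalized signal. No count model was used: in each library 42.5 to 44.6% of non-zero values were whole multiples of 1 read (tolerance 0.01). The value of 3 reads was 1.39 to 5.36, and a group at or under it in every library gave a fold only as a lower bound.

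Genes with a mean of at least 10 were tested with limma 3.58.1 in R 4.3.3 (lmFit, then eBayes with an intensity trend). The input was log2(value + 1), tests were two-sided, and p was adjusted by Benjamini-Hochberg over 17812 genes. Of the symbols, 23 occur more than once, none of them described here. Positions, lengths and shared stretches came from GENCODE release M21 (GRCm38). Plots were drawn with matplotlib 3.10.9.

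The members and lists were chosen with earlier results of these data known. Named list genes passed the call, were the most abundant of their list or partner a member, and the 3 genes with the highest r are named for each member. Alternatives were pseudocounts of 0.5 and 10, no filter, a stricter one at a mean of 50, median-of-ratios, quantile and non-mitochondrial rescaling, no trend, library quality weights, a block for adjacent library numbers, the adjusted p alone and leaving out each library. Some genes of the lists are not reported here.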

Additional observations from a re-analysis of the deposited data

How the results depend on the processing

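The calls of Bmp2, Gdf15, Igf1 and Pdgfb held in all 16 alternatives of each, of which median-of-ratios rescaling gave every library the same factor (1.01) and so tests no stability here or in the other counts of alternatives. Whichever library was left out, 4 genes were called lower and 0 higher. The log2 fold changes of Bmp2, Gdf15, Igf1 and Pdgfb ranged from -4.00 to -2.84, from -3.69 to -2.77, from -1.75 to -1.42 and from -2.24 to -1.51, in that order, and the highest limma adjusted p among them was 0.0406, for Pdgfb with 1 library left out. Bmpr2 ranged from -0.996 to -0.45 and was called in none of 16. The adjusted p alone, which is not among those 16, did call Bmpr2 lower (limma adjusted p = 0.0151). Bmp7 ranged from -0.65 to -0.06 in 15. Adrb1 passed the test under quantile normalization alone (-1.52) and ranged from -1.36 to -0.87 with 1 library left out. With a mean of at least 50, Bmp7 and Adrb1 were not tested. Median log2 fold changes of all genes were -0.15 under quantile normalization and 0.17 under rescaling to the non-mitochondrial total, against 0.00, and the share of calls that were higher was 50.6% and 69.4%, against 60.0%.

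Counts per list rest on few genes and moved more. With a mean of at least 50, where fewer genes are tested, the counts called higher were 12 over all pathway lists, 2 for BMP and GDF ligands, 1 for BMP antagonists, 1 for neuropeptide receptors, 1 for PDGF genes and 0 for BMP target genes, adrenergic receptors, nicotinic subunits and neuron to macrophage ligands. Quantile normalization gave 3 ligands, 0 BMP receptors, 2 antagonists and 1 neuropeptide receptor called higher, and 2 adrenergic receptors, 1 nicotinic subunit and 1 IGF axis gene called lower. Rescaling to the non-mitochondrial total gave 2 BMP target genes called higher, and 0 SMADs and 0 adrenergic receptors called lower. Without the intensity trend, 0 BMP receptors were called higher, and 0 SMADs and 0 adrenergic receptors lower. The block for adjacent library numbers, which the labels do not state as pairs, gave 4 ligands and 1 neuropeptide receptor called higher, losing Bmp6, Gdf11 and Vipr1 and adding Chrd, and changed no call of the 7 chosen genes. With the adjusted p alone, 1 BMP receptor, Bmpr2, and 4 IGF axis genes were called lower. With 1 library left out, the counts called higher ranged from 21 to 32 over all lists, 3 to 4 for ligands, 0 to 2 for BMP receptors, 1 to 6 for antagonists, 0 to 2 for adrenergic receptors, 1 to 2 for neuropeptide receptors and 1 to 2 for neuron to macrophage ligands. Those called lower ranged from 4 to 8 over all lists, 0 to 1 for SMADs, 0 to 1 for adrenergic receptors, 0 to 1 for nicotinic subunits and 1 to 4 for the IGF axis. Apart from the smaller number of genes tested, the cause was not tested. Low values such as those of Adrb1 and the nicotinic subunits limit what these depths can show.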
